A study of Mus musculus with 8 samples.

Results

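The 9 genes described here are the Notch receptors Notch1, Notch2, Notch3 and Notch4 and their ligands Dll1, Dll3, Dll4, Jag1 and Jag2, out of 22359 protein-coding genes of the GENCODE vM1 annotation of the mouse mm9 assembly. They are the receptors and canonical ligands of the pathway, and the rule that lists them uses gene names and no measured value, although earlier results of these data were known when the pathway was picked. Histone marks were mapped in tumors grown under the skin of young adult female C57BL/6J mice from a murine Lewis lung carcinoma line. LLC-NR tumors grew from cells sensitive to VEGF-Trap, a decoy receptor that binds VEGF, and LLC-R tumors grew from cells that had been made resistant by repeated selection in mice under continuous VEGF-Trap. Antibodies to H3K4me3, H3K9ac, H3K27me3 and H3K36me3 were each applied to micrococcal nuclease digests of both kinds of tumor. Each line and mark is represented by 1 of the 8 libraries, so the values below have no replicate error and no test between the lines was possible.

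Notch receptors sit in the plasma membrane and bind Delta-like (Dll) or Jagged (Jag) ligands on a neighbouring cell. Binding exposes the receptor to ADAM proteases and then to gamma-secretase, and the freed intracellular domain enters the nucleus, joins the DNA-binding protein RBPJ and activates genes such as those of the Hes and Hey families. In blood vessels, Dll4 is induced by VEGF in the tip cells of sprouts and restrains sprouting through Notch receptors on neighbouring cells. H3K4me3 and H3K9ac mark active promoters, H3K27me3 is laid down by Polycomb complexes at repressed or poised genes, and H3K36me3 is deposited along transcribed gene bodies. A promoter with both an active mark and H3K27me3 is called bivalent, a state first known from developmental genes with CpG-rich promoters in stem cells.

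The libraries held between 5660458 and 9101721 peaks. Every peak had the width of the DNA around 1 nucleosome, and none overlapped another of its library, so each value is a number of called nucleosome positions and not a height. A promoter began 1 kb before the TSS and ended 0.5 kb after it, and no promoter held more than 9 peaks of a mark. Marker genes of endothelial cells summed in LLC-NR and LLC-R to 36 and 31 H3K4me3 peaks over 8 promoters, those of leukocytes to 39 and 30, those of fibroblasts and mural cells to 42 and 37, and those of lung epithelium to 38 and 39. Per promoter, these lists lay between 0.815 and 1.07 times the mean of all promoters, so these counts did not set the tissue labelled lung apart from the other cell types, and no marker promoter was at 0 for H3K4me3. Isografts contain vessels, stroma and leukocytes of the host beside the tumor cells. Fewer cells carrying a mark and less of the mark per cell cannot be told apart in such tissue, and neither can marks on the same nucleosome and marks in different cells. The part of the marker lists in the values of the Notch genes was not tested.

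Called peaks cover much of the genome in every library. In stretches of the length of a promoter (1.5 kb) lying 5 kb or more away from every TSS, H3K27me3 averaged 4.42 peaks (LLC-NR) and 5.54 peaks (LLC-R) per stretch. For the other marks the pairs were 3.35 and 3.36 for H3K4me3, 5.13 and 4.72 for H3K9ac, and 3.86 and 5.29 for H3K36me3. A level is therefore read against other promoters of the same library, and a promoter at or above the mean need not be enriched over the rest of the genome.

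All 9 Notch promoters held a number of H3K27me3 peaks at or above the mean of all promoters in both lines. This held for 43.5% of all promoters and for 41.4% of the 12115 CpG-rich promoters (HCPs). In LLC-NR the members held 6.44 ± 0.726 H3K27me3 peaks per promoter (SD over the 9 genes) against a mean of 4.56 over all promoters, and 6.56 ± 0.726 against 5.45 in LLC-R, where the mean of all promoters lay below that of the stretches away from any TSS. The level was therefore 1.41 times that of all promoters in LLC-NR (95% exact binomial interval of the summed peaks 1.07 to 1.83) and 1.20 times in LLC-R (0.916 to 1.55). These intervals cover counting error only and treat peaks as independent, which peaks that cannot overlap are not, and the one for LLC-R includes 1. Within 0.5 kb on each side of the TSS, 7 of the 9 reached the mean in both lines, against 33.9% of all promoters.

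The same promoters held H3K4me3 peaks. In LLC-NR the members held 6.11 ± 1.17 H3K4me3 peaks and in LLC-R 5.78 ± 1.48, against 4.91 and 4.60 over all promoters, and both lay close to the HCP means of 6.05 and 5.60. H3K9ac did not set them apart, with 5.44 ± 1.33 and 5.11 ± 1.45 peaks against 5.50 and 4.95 over all promoters. Both H3K4me3 and H3K27me3 reached the mean in both lines at 7 of the 9 promoters, which was so at 21.7% of all promoters and 31.4% of HCPs. Dll3 and Jag2 were the exceptions, and both fell short in H3K4me3.

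**Figure D1:**
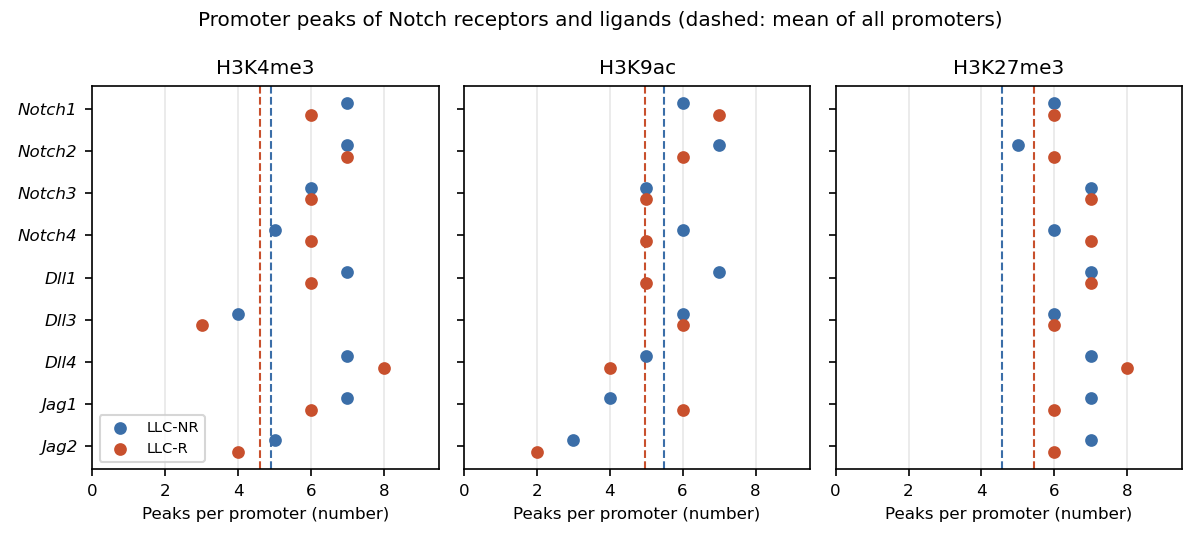
Number of peaks in the promoter (x axis) of each Notch gene (rows) for 3 marks in LLC-NR (blue) and LLC-R (orange), 1 library per point, with the mean of all promoters of each library as a dashed line. All 18 points for H3K27me3 lie right of their line, Dll3 is lowest for H3K4me3 with 4 and 3 peaks, and Jag2 is lowest for H3K9ac with 3 and 2.

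With the mean of each library as threshold, a promoter was called bivalent when H3K27me3 and at least 1 of H3K4me3 and H3K9ac reached it, and repressive when H3K27me3 alone did. These names state only which counts reached the mean of all promoters, and for H3K27me3 and H3K9ac that mean lies close to the count of stretches away from any TSS. All 9 promoters were bivalent in LLC-NR, and 8 were in LLC-R, where Jag2 was repressive. Among all promoters, the bivalent share was 48.4% in LLC-NR against 52.8% in LLC-R, where 5.80% were repressive. The state differed between the lines at 1 of the 9 promoters and at 38.0% of all promoters. Some margins were thin: Notch4 and Jag2 lay 0.0896 peaks above the H3K4me3 mean in LLC-NR, and the margin of Jag2 in LLC-R was −0.603.

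The DNA at these promoters was mostly rich in CpG. Notch1, Notch2, Notch3, Dll1, Dll4, Jag1 and Jag2 were HCPs, with a 500-bp interval of at least 55% G+C and a ratio of observed to expected CpG of at least 0.6. Notch4 and Dll3 were of intermediate class (ICPs). Jag2 was the richest, with 181 CpGs in 1.5 kb and 71.6% G+C, above 99.6% of all promoters, and Notch4 was the poorest, with 23 CpGs and 53.1% G+C. The sequences below lie under the nearest H3K4me3 peak wholly upstream of the TSS in LLC-NR, from the NCBIM37 (mm9) genome, 5′ to 3′ on the strand of the gene, with CpGs in capitals. Dll4 is shown as the member with the most H3K4me3 peaks. Jag1, Jag2 and Notch4 were added after their values were seen, since the Jag1 peak was found again in LLC-R 1 bp away and the other two are the richest and the poorest of the promoters in CpG. Each lies in no annotated exon. Dll3, with the fewest H3K4me3 peaks, is not shown because its peak overlaps an exon of another Dll3 transcript.
Dll4, chr2:119151351-119151497, plus strand: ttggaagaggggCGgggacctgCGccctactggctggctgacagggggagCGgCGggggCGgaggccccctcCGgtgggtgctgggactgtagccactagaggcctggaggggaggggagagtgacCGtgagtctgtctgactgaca
Jag1, chr2:136942600-136942746, minus strand: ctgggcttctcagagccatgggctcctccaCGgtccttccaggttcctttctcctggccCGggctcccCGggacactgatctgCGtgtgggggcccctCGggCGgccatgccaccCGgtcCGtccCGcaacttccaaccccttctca
Jag2, chr12:114167898-114168044, minus strand: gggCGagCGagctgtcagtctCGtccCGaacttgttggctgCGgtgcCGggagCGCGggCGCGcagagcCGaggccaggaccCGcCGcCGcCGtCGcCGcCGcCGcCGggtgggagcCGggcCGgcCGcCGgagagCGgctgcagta
Notch4, chr17:34701063-34701209, plus strand: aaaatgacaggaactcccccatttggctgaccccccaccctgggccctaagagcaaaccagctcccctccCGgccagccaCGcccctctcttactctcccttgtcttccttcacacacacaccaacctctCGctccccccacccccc
These stretches hold 7 CpGs at Dll4, 9 at Jag1, 25 at Jag2 and 3 at Notch4. G+C content was 78.9% in the Jag2 stretch and 62.6% in the Notch4 stretch, so the latter had few CpGs although most of its bases were G or C.

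The core of the motif bound by RBPJ, GTGGGAA on either strand, was present in 4 of the 9 promoters. It lay at −384 bp from the TSS at Notch1, and at 481, 448 and 268 bp at Notch3, Notch4 and Dll1. By comparison, 27.3% of all promoters and 26.4% of HCPs contain it. A match is only a run of letters and does not say that RBPJ was bound.

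Among the receptors in LLC-NR, H3K4me3 was highest at Notch1 and Notch2 and H3K27me3 at Notch3. Notch1 (ENSMUSG00000026923.8, chr2:26313423-26372183, minus strand) acts in T cell fate and in arteries. In LLC-NR its promoter held 7 H3K4me3, 6 H3K9ac and 6 H3K27me3 peaks. The counts in LLC-R were 6, 7 and 6. It ranked at the 54.4th percentile of all promoters for H3K9ac in LLC-NR and at the 92.3rd in LLC-R, although the counts differed by 1 peak. The annotated coding TSS lying at −5835 bp held fewer H3K4me3 peaks than the main one, 4 in LLC-NR and 3 in LLC-R.

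Notch2 (ENSMUSG00000027878.9, chr3:97817461-97954290, plus strand), which is needed for marginal zone B cells and acts beside Notch1 in many tissues, held 7 H3K4me3 peaks in each line and 7 and 6 H3K9ac peaks. Its 5 H3K27me3 peaks in LLC-NR were the lowest of the members, at the 54.3rd percentile, and it held 6 in LLC-R. In LLC-NR, Notch2 was thus the receptor with the most peaks of active marks and the fewest of H3K27me3.

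Notch3 (ENSMUSG00000038146.7, chr17:32257765-32303825, minus strand), the receptor of vascular smooth muscle and pericytes, held the same counts in both lines: 6 H3K4me3, 5 H3K9ac and 7 H3K27me3 peaks. Its H3K27me3 count lay at the 92.5th percentile in LLC-NR and the 84.3rd in LLC-R. Notch4 (ENSMUSG00000015468.8, chr17:34701213-34725448, plus strand), found mainly in endothelium, held 5 and 6 H3K4me3, 6 and 5 H3K9ac, and 6 and 7 H3K27me3 peaks. No receptor promoter differed between the lines by more than 1 peak in these 3 marks.

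The Delta-like ligands were all above the mean in H3K27me3 and uneven in H3K4me3. Dll1 (ENSMUSG00000014773.7, chr17:15504318-15513836, minus strand), a ligand of somite formation and of lymphocyte development, held 7 and 6 H3K4me3 peaks and 7 H3K27me3 peaks in each line. Its H3K9ac count of 7 in LLC-NR compared with 5 in LLC-R, the 82.7th and 43.8th percentiles. Its promoter overlaps the lincRNA A930024N18Rik on the other strand, and peaks carry no strand, so the signal of the pair cannot be divided.

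Dll3 (ENSMUSG00000003436.10, chr7:29076673-29087257, minus strand) is the divergent ligand that stays largely inside the cell and does not activate receptors on neighbours. Its promoter was the lowest member for H3K4me3, with 4 peaks and 3 peaks in LLC-NR and LLC-R, at the 29.9th and 19.5th percentiles. It held 6 peaks of both H3K9ac and H3K27me3 in each line, so it was bivalent through H3K9ac. Another coding TSS of Dll3, at −453 bp, held 4 H3K4me3 peaks in each line.

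Dll4 (ENSMUSG00000027314.6, chr2:119151520-119161698, plus strand), the ligand of the endothelial tip cell, was the highest member for both H3K4me3 and H3K27me3 summed over the lines. Its promoter held 7 peaks of each of these marks in LLC-NR and 8 of each in LLC-R. The 8 peaks in LLC-R placed it at the 98.9th percentile for H3K4me3 and at the 97.6th for H3K27me3. H3K9ac did not follow, with 5 and 4 peaks, at the 28.5th and 22.0th percentiles. The lincRNA Gm14207 overlaps this promoter on the other strand.

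The Jagged ligands differed from each other. Jag1 (ENSMUSG00000027276.7, chr2:136907192-136942380, minus strand), which acts in vessels, bile ducts and the heart, held 7 and 6 H3K4me3 peaks and 7 and 6 H3K27me3 peaks. Its H3K9ac count of 4 in LLC-NR compared with 6 in LLC-R, the 15.2nd and 72.1st percentiles. Jag2 (ENSMUSG00000002799.5, chr12:114146801-114167706, minus strand), a ligand of limb and craniofacial development, was low in both active marks while holding 7 and 6 H3K27me3 peaks. It had 5 and 4 H3K4me3 peaks, and its 3 and 2 H3K9ac peaks lay at the 9.14th and 6.93rd percentiles. The 171 promoters with at least 70% G+C, such as that of Jag2, held on average 4.58 and 4.27 H3K9ac peaks in the respective lines, below all promoters, and 6.58 and 6.30 H3K4me3 peaks, above all promoters. The part of base composition in the Jag2 values was not tested.

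Peaks also give called nucleosome positions around each TSS. At Dll4, the nearest upstream midpoint lay at −96 and −90 bp for H3K4me3 in LLC-NR and LLC-R and at −91 and −96 bp for H3K27me3. The nearest downstream midpoint lay between 78 and 82 bp in the same 4 libraries. The called positions on each side of the Dll4 TSS were therefore within 6 bp of each other in both marks and both lines. Among the other members this range was 27 bp at the closest upstream, at Notch3, and 13 bp at the closest downstream, at Jag1. It reached 398 bp upstream of Jag2 and 383 bp upstream of Dll3. In H3K9ac, the nearest upstream midpoint at Dll4 lay farther off, at −249 and −302 bp in LLC-NR and LLC-R. In H3K36me3 it lay at −437 and −301 bp. The nearest downstream midpoints of both marks at Dll4 lay between 84 and 97 bp.

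**Figure D2:**
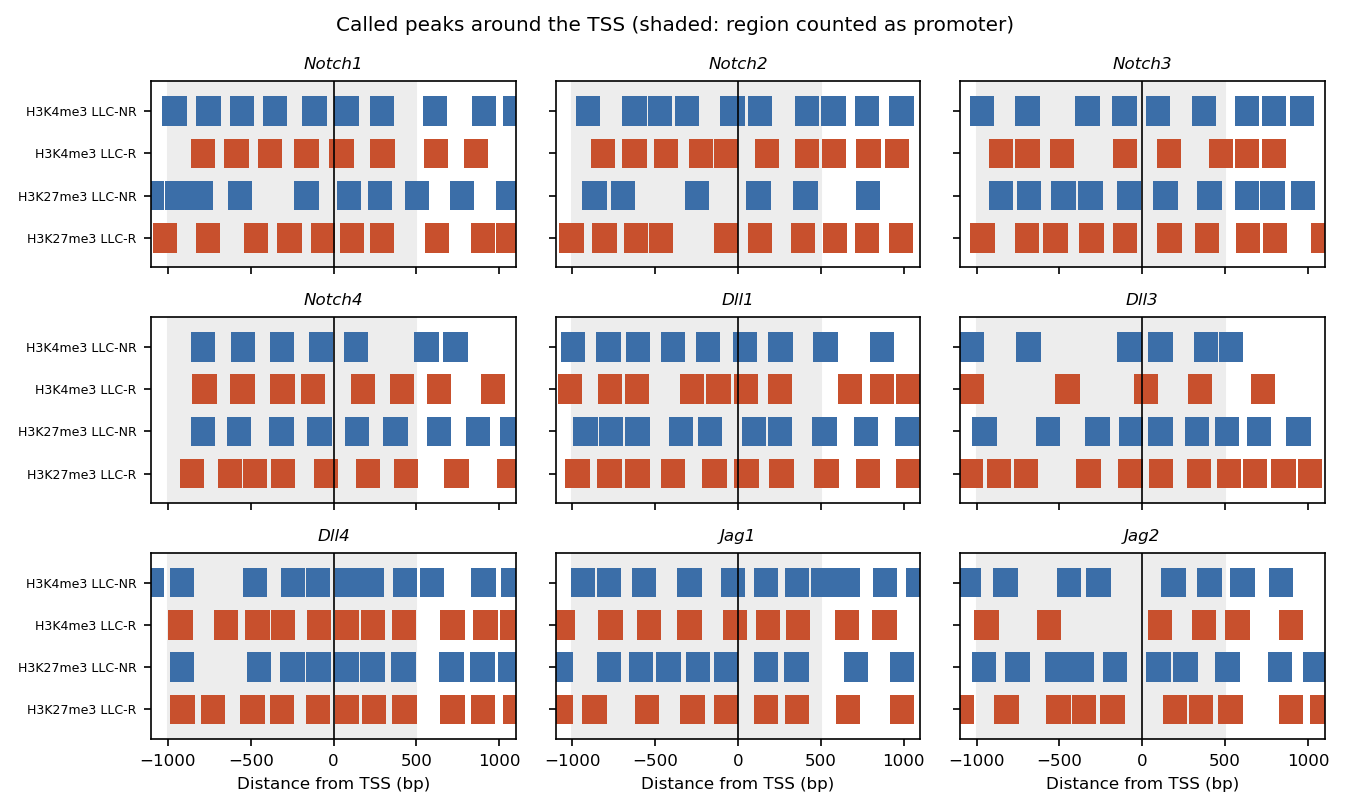
Called peaks (boxes, each 1 nucleosome wide) around the TSS (0 on the x axis, distance in bp along the gene) of each Notch gene, in rows for H3K4me3 and H3K27me3 in LLC-NR (blue) and LLC-R (orange), with the promoter interval shaded. At Dll4 the boxes beside the TSS stand in 1 column over all 4 libraries, with midpoints within 6 bp, while at Jag2 and Dll3 the upstream boxes are displaced by up to 398 and 383 bp.

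H3K4me3 and H3K27me3 positions coincided at a larger share of the members' peaks than over all promoters. In LLC-NR, 31 of the members' 55 H3K4me3 peaks (56.4%, 95% exact binomial interval 42.3 to 69.7) had an H3K27me3 midpoint within 30 bp, against 36.7% of H3K4me3 peaks over all promoters and 36.9% over HCPs. In LLC-R, it was 29 of 52 (55.8%, 41.3 to 69.5) against 41.0% and 41.2%. These intervals treat peaks as independent, which neighbouring nucleosomes are not. Dll4 had 7 of 7 H3K4me3 positions shared with H3K27me3 in LLC-NR and 6 of 8 in LLC-R, Notch4 had 5 of 5 and 3 of 6, and Jag2 had 0 of 5 and 1 of 4. The members also held 1.41 and 1.20 times as many H3K27me3 peaks as all promoters, and the part of this density in the shared positions was not tested. H3K4me3 and H3K9ac positions were shared at 41.8% of the members' peaks in LLC-NR, against 49.4% over all promoters and 52.0% over HCPs, and at 44.2% in LLC-R, against 39.0% and 40.4%.

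Between the lines, 25 of the 55 H3K4me3 peaks of LLC-NR (45.5%, interval 32.0 to 59.4) had a midpoint within 30 bp in LLC-R, close to the 43.9% of all promoters and 51.2% of HCPs. For H3K27me3 it was 28 of 58 (48.3%) against 43.2%. Dll4 kept 6 of 7 H3K4me3 positions, Dll1 and Jag1 5 of 7 each, Notch4 3 of 5, Notch1 and Notch2 2 of 7 each, Notch3 2 of 6, and Dll3 and Jag2 none of 4 and 5. Promoters with many peaks were thus found at both high and low shares.

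A difference of at least 2 peaks was set as the size to be called in a promoter between LLC-R and LLC-NR. In H3K4me3, 0 of the 9 members had at least 2 fewer peaks in LLC-R, against 18.4% of all promoters, and 0 had at least 2 more, against 9.06%. In H3K27me3, 0 members had at least 2 fewer, against 3.48% of all promoters, and 0 had at least 2 more, against 31.8%. In H3K9ac, 1 member had 2 fewer, Dll1 (22.1% of all promoters), and 1 had 2 more, Jag1 (5.36%). In these 3 marks, 2 members thus reached a difference of 2 peaks, both in H3K9ac. The highest count at any promoter was 9. In LLC-NR the members' median H3K27me3 count was already 7, against 5 over all promoters. A gain of 2 from 7 peaks needs 9, and 4.65% of all promoters held 8 or more in LLC-R. The members thus had less room for a gain than most promoters, and the part of this in the 0 H3K27me3 gains was not tested. Counted within 0.5 kb on each side of the TSS, neither Dll1 nor Jag1 differed by 2 peaks in H3K9ac. Within 1 kb on each side, 0 members had at least 2 more H3K9ac peaks (6.57% of all promoters) and 3 at least 2 fewer (28.4%). From the most upstream TSS, 0 had at least 2 fewer (22.0%) and 1 at least 2 more (5.35%). With any overlap of a peak counted, 2 members had at least 2 fewer H3K4me3 peaks, against 20.5% of all promoters. In H3K27me3, 1 member had at least 2 more peaks under each of the 4 other ways of counting. The share of all promoters so called ran from 19.2% within 0.5 kb to 41.7% within 1 kb of the TSS.

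In H3K27me3, 3 members had more peaks in LLC-R, 4 the same and 2 fewer, while 58.4% of all promoters had more. The LLC-R library of this mark also held the most peaks in all, 9101721 against 7245090 in LLC-NR. Relative to the mean of all promoters, the summed H3K27me3 count of the members changed by −0.23 on the log2 scale from LLC-NR to LLC-R, with a counting interval from −0.78 to 0.32 that includes 0. The same log2 difference was 0.012 for H3K4me3 (−0.56 to 0.59) and 0.060 for H3K9ac (−0.55 to 0.67). On this scale, each of the 3 intervals included 0. Divided by uniquely mapped reads in place of the mean of all promoters, the log2 difference for H3K27me3 was −1.08 (−1.62 to −0.53). For H3K9ac it was 0.71 (0.10 to 1.32), so whether the lines differ depends on the scaling. Scaling by reads shifts all promoters of a library alike, so these values do not compare the members with other promoters.

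In gene bodies, counted per kb from 0.5 kb downstream of the TSS to the gene end, the members split by the balance of H3K27me3 and H3K36me3. In LLC-NR, Dll3, Dll1, Dll4 and Notch3 held 4.46, 4.19, 4.13 and 4.08 H3K27me3 peaks per kb, at the 99.0th, 94.98th, 93.5th and 92.0th percentiles of 18609 bodies. Notch4, Jag2, Jag1 and Notch1 followed with 3.54, 3.53, 3.49 and 3.17, and Notch2 was the only member below the median of 2.71, with 2.35. With 1 library per line and mark, no error can be put on this order. Dll3 stood out from its surroundings in LLC-NR, since the 20 kb starting 5 kb upstream held 1.75 H3K27me3 peaks per kb, at the 11.0th percentile, and the 20 kb starting 5 kb downstream held 2.90. Downstream of Dll1, in contrast, the same interval held 4.40, at the 99.4th.

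H3K36me3, the mark of transcribed bodies, ran only partly the other way. Notch2 held 4.15 H3K36me3 peaks per kb in LLC-NR, at the 94.0th percentile, and Jag1 and Notch1 followed with 3.55 and 3.26. The other 6 members were below the median of 3.15, from Dll3 with 2.91, Notch3 with 2.55 and Notch4 with 2.44 to Dll4 with 2.38, Dll1 with 2.34 and Jag2 with 1.91. Over the 9 members, Spearman's rho between the densities of the marks came to −0.55 for LLC-NR and −0.45 for LLC-R, against −0.24 and 0.089 over all bodies. These are descriptions over genes of 1 library each.

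**Figure D3:**
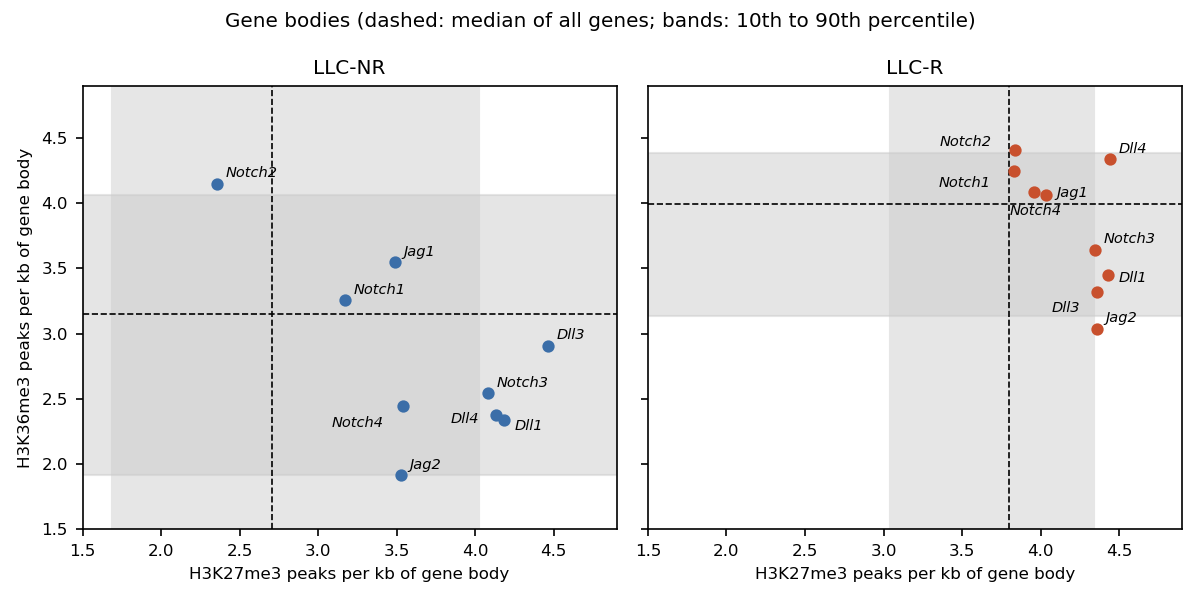
H3K27me3 (x axis) against H3K36me3 (y axis) peaks per kb of gene body for the 9 Notch genes in LLC-NR (left) and LLC-R (right), 1 library per axis, with medians of all bodies dashed and the span from the 10th to the 90th percentile as bands. In LLC-NR Notch2 stands at the upper left (2.35, 4.15), and Dll1, Dll4 and Notch3 at the lower right. In LLC-R all 9 genes lie above 3.8 for H3K27me3.

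Over all bodies, the 10th to 90th percentiles of H3K27me3 density ran from 1.69 to 4.02 in LLC-NR and 3.04 to 4.34 in LLC-R. In LLC-R, the members' H3K27me3 densities likewise lay closer together. They were 4.44 for Dll4, 4.43 for Dll1, 4.36 for Jag2 and Dll3, 4.35 for Notch3, 4.04 for Jag1, 3.96 for Notch4, 3.84 for Notch2 and 3.83 for Notch1, against a median of 3.80. Dll1, Dll3, Dll4 and Notch3 thus stayed above the 90th percentile in both lines. Jag2 ranked at the 72.8th percentile in LLC-NR and at the 91.1st in LLC-R. H3K36me3 densities in LLC-R were 4.41 for Notch2, 4.34 for Dll4, 4.25 for Notch1, 4.09 for Notch4, 4.06 for Jag1, 3.64 for Notch3, 3.45 for Dll1, 3.32 for Dll3 and 3.04 for Jag2, against a median of 3.99. Dll4 lay at the 20.2nd percentile in LLC-NR and at the 85.9th in LLC-R, where it held both marks at high density. Jag2 was the lowest member in both lines, at the 9.90th and 9.05th percentiles.

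Body changes were taken as the log2 ratio of LLC-R to LLC-NR minus the median of all genes, which was 0.43 for H3K27me3 and 0.31 for H3K36me3, and called at 0.25 either way. For H3K27me3, 5 members were lower in LLC-R, Dll3 (−0.46), Dll1 (−0.35), Notch3 (−0.34), Dll4 (−0.32) and Notch4 (−0.27), against 26.2% of all genes. Notch2 was higher (0.28), as were 25.8% of all genes. For H3K36me3, 3 members were higher, Dll4 (0.56), Notch4 (0.43) and Jag2 (0.36), against 21.5% of all genes, and 0 were lower, against 10.5%.

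**Figure D4:**
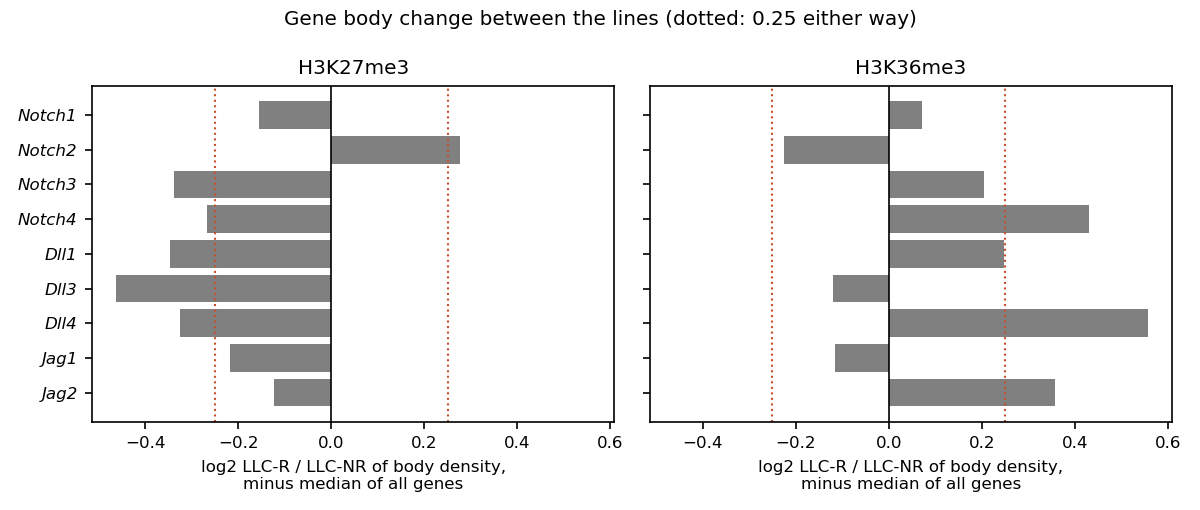
Log2 ratio of LLC-R to LLC-NR of peaks per kb of gene body, minus the median of all genes (x axis), for H3K27me3 (left) and H3K36me3 (right) of each Notch gene, with 1 library per line and mark and dotted lines at 0.25 either way. Bars for H3K27me3 point left in all genes but Notch2, and the longest for H3K36me3 are those of Dll4 and Notch4 to the right.

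These calls went with the level at which a gene started. Of the 5236 genes with at least 3.5 H3K27me3 peaks per kb in LLC-NR, 77.2% were called lower and 0 higher, and this group holds all 5 members called lower, with Jag2 as the sixth. Of the 4183 genes with at most 2.5 H3K36me3 peaks per kb in LLC-NR, 75.1% were called higher, and this group holds the 3 members called higher and Dll1. In absolute terms, the H3K27me3 density of 8 of the 9 members was higher in LLC-R, and that of Dll3 was 4.46 and 4.36. Most genes were higher too, with a median log2 ratio of 0.43 over all genes. Peaks of a library cannot overlap, so the number that a body can hold has a limit. The part of this limit in the calls was not tested. The members' median change was −0.27 for H3K27me3 and 0.21 for H3K36me3. Scaled by uniquely mapped reads in place of the median of all genes, it was −0.94 and −0.70, so the direction for H3K36me3 depends on the scaling. The read-scaled values do not compare the members with other genes. The H3K36me3 change was 0.082 with bodies counted from 2 kb and 0.074 scaled by total peaks.

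In promoters, H3K36me3 counts were higher in LLC-R at 8 of the 9 members, as in the library as a whole. Such a rise was common, since a difference of 0 ranked at the 13.8th percentile of all promoters and 1 more peak at the 32.9th. At Dll1, 2 promoter peaks of H3K36me3 in LLC-NR stood against 7 in LLC-R. The pairs were 2 and 6 at Jag1, 3 and 7 at Notch4 and 3 and 6 at both Dll3 and Dll4, with 1 and 3 at Notch1, 2 and 3 at Notch2 and 4 and 5 at Notch3, while Jag2 held 2 in each line. The mean of all promoters went from 3.19 to 4.95 as the whole library went from 6432447 to 8747519 peaks. Stretches away from any TSS went from 3.86 to 5.29. The members' mean went from 2.44 to 5, that is from 0.766 to 1.01 times that of all promoters.

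The other genes of the pathway, 49 in 6 lists of which 42 have HCPs, varied in H3K27me3 from list to list. H3K4me3 lay at or above the mean in both lines at 38 of the 49 promoters, where the share was 51.1% of all promoters and 79.1% of HCPs. H3K27me3 did so at 24, against 43.5% of all promoters. By list, H3K27me3 did so at 7 of 8 target genes (among them Hes1, Hes5, Hey1, Hey2 and Heyl, which carry out the transcriptional response), at 3 of 3 other ligands (Dlk1, Dlk2 and Dner), at 3 of 5 glycosyltransferases, at 5 of 11 genes of trafficking and turnover, at 4 of 10 proteases of receptor cleavage and at 2 of 12 genes of the nuclear complex. The targets had 1.43 and 1.19 times the H3K27me3 of all promoters in LLC-NR and LLC-R, next to 1.41 and 1.20 for the receptors and ligands, 0.966 and 0.936 for the proteases and 0.841 and 0.948 for the nuclear complex. Of the markers, H3K27me3 was above the mean in both lines at 6 of 8 endothelial, 6 of 8 leukocyte, 7 of 8 fibroblast and mural and 6 of 8 lung epithelial genes, so the level is not restricted to this pathway or to 1 of these cell types.

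Within the lists, H3K4me3 ran from Ncstn (7 and 8 peaks), a subunit of gamma-secretase, to Psen2 (4 and 3), one of its catalytic subunits. It ran from Ncor1 (8 and 8), a corepressor, to Rbpj (3 and 4) in the nuclear complex, and from Hes5 and Hey1 (6 and 7 each) and Nrarp (8 and 5), which have the same sum, to Dtx1 (3 and 3) among targets. The highest and lowest were Lfng (7 and 8) and, tied, Poglut1 and Mfng (4 and 5 each) among glycosyltransferases, which modify the receptors, Fbxw7 (7 and 8), which directs receptor turnover, and Numb (2 and 4), which inhibits Notch, and, among other ligands, Dlk2 and Dner (6 and 5 each) and Dlk1 (4 and 4). At least 2 fewer H3K4me3 peaks in LLC-R were counted at 8 of the 49 promoters and at least 2 more at 3, where 18.4% and 9.06% of all promoters were so called. For H3K9ac the counts were 15 and 1, against 22.1% and 5.36%, and for H3K27me3 they were 1 and 17, against 3.48% and 31.8%. Target genes held 52 H3K27me3 peaks in each line, and 1 of the 8 promoters had at least 2 more in LLC-R.

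The genes most like each member were those at the smallest distance between within-library percentiles of promoter H3K4me3, H3K9ac and H3K27me3 and body H3K36me3 in the 8 libraries, among 18608 genes. Notch2 was nearest to Cox15 (0.546) and Morf4l1 (3.27), and Notch3 to 9430020K01Rik (5.03) and Dpysl5 (6.15). The nearest genes were Nfatc1 and Pla2g12a for Notch1, Jam3 and Trp53inp2 for Notch4, Epm2a and Crabp1 for Dll1, 1700061G19Rik and Gm694 for Dll3, Ybx2 and Slc6a8 for Dll4, Pcnx and Sppl3 for Jag1, and AB041806 and Slc32a1 for Jag2.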

How the data were processed

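The authors aligned reads to mm9 with Bowtie 0.12.7, kept uniquely mapped reads and called peaks per library with GeneTrack, whose settings are not given in the sources used here. The deposited values are positions only (chromosome, start and end of each peak), with no count of reads, height or strand, and no input library was used here. The annotation was GENCODE vM1 and the sequence NCBIM37. Each gene took the TSS shared by most of its coding transcripts, the upstream one where tied. A peak counted where its midpoint lay inside the region. Bodies were at least 2 kb long. Percentiles are mid-ranks within a library. A share or count has an exact binomial interval of 95%, for counting error only. Each group is 1 library, so no p-value is given. A size of 2 peaks or 0.25 on the log2 scale was called. Named genes are the members, the 2 genes nearest to each, and the highest and lowest of each pathway list. Members and lists were chosen with earlier results of these data known. Counting was tested on simulated data. Alternatives covered the region, TSS, overlap, scaling and comparison genes. Scripts ran under Python 3.11.15 with pandas 2.3.3, Matplotlib 3.10.9, SciPy 1.17.1 and NumPy 2.4.6.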

Additional observations from a re-analysis of the deposited data

How the results depend on the processing

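Of 66 recomputed main values (levels over all promoters and changes between the lines), 60 lay inside the counting interval of the reported value. The other 6 lay outside it. Scaled by the uniquely mapped reads of each library, the log2 change of the members was 0.71 for H3K9ac promoters (0.060 as reported), −1.08 for H3K27me3 promoters (−0.23), −0.70 for H3K36me3 bodies (0.21, so the sign turned) and −0.94 for H3K27me3 bodies (−0.27). This scaling assumes that peaks grow in proportion to reads, and within each mark the library with more reads held fewer peaks per read. It also leaves out the comparison with all promoters or all genes. The H3K36me3 body change was 0.082 with bodies counted from 2 kb and 0.074 scaled by total peaks. The cause was not tested. Counts of members called in promoters stayed between 0 and 3, here with the share of all promoters so called in brackets. At least 2 fewer H3K4me3 peaks occurred at 1 member within 1 kb (23.4%), 1 within 0.5 kb (11.1%) and 2 with any overlap (20.5%). For H3K9ac it was 3 within 1 kb (28.4%), 0 within 0.5 kb (13.5%) and 0 from the most upstream TSS (22.0%). At least 2 more H3K27me3 peaks occurred at 1 member under each of these. The shares were 41.7% within 1 kb, 19.2% within 0.5 kb, 34.9% with any overlap and 31.7% from the most upstream TSS. Bivalent members in LLC-NR numbered 7 to 9, against 34.7% to 50.1% of all promoters. Members with H3K27me3 at or above the mean in both lines numbered 7 within 0.5 kb of the TSS (33.9% of all promoters). Otherwise they numbered 9 (43.5% to 55.8%). No paired analysis was possible because each line and mark has 1 library, and for the same reason no library could be left out. The number of peaks limits what can be seen: no promoter held more than 9 of a mark, and a difference of 1 peak is within counting error.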
